A study of Mus musculus with 9 samples.

Results

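The CXCR3 chemokine axis of mouse lung comprises 3 listed ligands, Cxcl9, Cxcl10 and Cxcl11, and their shared receptor, Cxcr3. These 4 genes were selected by gene symbol, and 3 of them, Cxcl9, Cxcl10 and Cxcr3, were analysed among the 25526 names of the expression table. All 3 passed the filter on low values that left 14540 genes for testing. Cxcl11 is not analysed here.

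RNA was sequenced from the lungs of 9 mice, 3 in each of 3 groups. The nanozyme group is labelled PepNzymeSOD-CAT, a self-assembled polypeptide nanozyme made for inhalation and named for the activities of superoxide dismutase and catalase. The second group is the pulmonary fibrosis model, and the third is normal mice. The labels give no genetic modification, strain, sex, age, fibrosis inducer, dose or sampling time, and they do not state what the nanozyme mice received besides the nanozyme. The nanozyme libraries carry numbers out of sequence with those of the other groups and no batch is labelled, so a separate batch cannot be told apart from the treatment. Values are FPKM, fragment numbers scaled to transcript length and library size, as the authors deposited them. Their sums over all genes ran from 443746 to 519772 per library, and the number of reads behind each value is unknown. Lung epithelial transcripts were abundant in every library, with summed levels of 37080 to 58927 FPKM in nanozyme lungs, 18640 to 29260 FPKM in model lungs and 85278 to 106496 FPKM in normal lungs. On the first principal component of all tested genes, which held 62.8% of the variance, nanozyme replicate 2 scored 43.3 and the other nanozyme replicates scored -14.4 and -9.68. Model lungs scored 39.5 to 61.2 and normal lungs scored -63.5 to -54.8, so nanozyme replicate 2 lay within the range of the model lungs. Results on the nanozyme lungs are therefore given with and without that library.

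CXCR3 is a G protein-coupled chemokine receptor carried mainly by activated type 1 helper T cells, cytotoxic T cells and natural killer (NK) cells, which follow gradients of its ligands into inflamed tissue. CXCL9 is induced chiefly by interferon-gamma, made by the same lymphocytes, while CXCL10 also answers to type I interferons and to NF-kB. Macrophages, endothelial cells, fibroblasts and epithelial cells can all make these ligands, and in human lung CXCL10 is measured as a marker of interstitial and infectious disease.

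The ligand genes form a cluster on chromosome 5. In the GENCODE vM21 annotation of GRCm38, Cxcl9 (ENSMUSG00000029417.9) lies at chr5:92321347-92328079 and Cxcl10 (ENSMUSG00000034855.13) at chr5:92346638-92348889. Cxcl11 lies beside them at chr5:92359544-92365485, and all 3 are on the minus strand within 44139 bases. Both annotations used here class Cxcl11 as a pseudogene form in the reference strain, as a polymorphic pseudogene in GENCODE and a transcribed pseudogene in RefSeq. Cxcr3 (ENSMUSG00000050232.6) lies apart, at chrX:101731535-101734269 on the minus strand. The plus-strand gene Art3, an ADP-ribosyltransferase family gene, spans Cxcl10, and no annotated gene overlaps Cxcl9 or Cxcr3. The library protocol marks the second strand, but the strand setting of the counting is not given in the sources used here, so reads of Cxcl10 and Art3 may not have been separated.

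The 250 bases before the annotated start of the ligand genes are shown because the genes moved together and are classic interferon and NF-kB targets. They are RefSeq sequences of GRCm38.p6, minus strand, Cxcl9 at chr5:92328080-92328329 and Cxcl10 at chr5:92348890-92349139, printed 5′ to 3′ so that the last base adjoins the start. Capitals mark the motif matches and the longest run of bases that both sequences share.
Cxcl9: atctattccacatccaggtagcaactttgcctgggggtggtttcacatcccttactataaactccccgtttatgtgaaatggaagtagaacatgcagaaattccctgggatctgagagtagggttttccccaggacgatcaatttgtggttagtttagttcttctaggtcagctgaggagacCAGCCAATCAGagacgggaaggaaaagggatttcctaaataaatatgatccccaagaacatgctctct
Cxcl10: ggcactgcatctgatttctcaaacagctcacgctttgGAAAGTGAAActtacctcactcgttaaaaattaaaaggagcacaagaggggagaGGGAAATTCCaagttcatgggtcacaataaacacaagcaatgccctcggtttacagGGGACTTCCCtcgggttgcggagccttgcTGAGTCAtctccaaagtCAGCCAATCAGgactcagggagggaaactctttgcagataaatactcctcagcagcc
Both strands were searched for an interferon-stimulated response element (ISRE, spelled GAAA, any 2 bases, GAAA), a gamma-activated site (GAS, spelled TTCNNNGAA), the NF-kB consensus and an AP-1 element (TGANTCA). The Cxcl10 sequence held 1 ISRE match, GAAAGTGAAA, 213 to 204 bases before the start. It held 2 NF-kB matches, GGGAAATTCC 159 to 150 bases and GGGACTTCCC 103 to 94 bases before the start, and 1 AP-1 match, TGAGTCA, 74 to 68 bases before it. The Cxcl9 sequence held no match to the 4 motifs in this window, and neither did that of Cxcr3. Only exact spellings were searched, so an element spelled otherwise would not be found. Among 32851 RefSeq promoters of the same length, 2.98% held the ISRE, 7.02% the GAS, 3.9% the NF-kB consensus and 6.75% the AP-1 element. Only 4 of them, or 0.0122%, held the ISRE, NF-kB and AP-1 motifs together, and Cxcl10 was 1 of these. This combination is the set of motifs matched in Cxcl10, so its own place was fixed and the low share is no evidence. Both ligand sequences held the 11-base run CAGCCAATCAG, 68 to 58 bases before the start of Cxcl9 and 57 to 47 bases before that of Cxcl10. That run occurs on either strand in 0.755% of the promoters, and no motif searched overlaps it. The motifs were chosen after the sequences had been seen, and a match is a description of letters, not of binding.

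Cxcl9 was measured at 1.75, 145 and 12.3 FPKM in nanozyme lungs, at 115, 367 and 241 FPKM in model lungs and at 0.525, 0.807 and 0.686 FPKM in normal lungs. Every model lung stood far above every normal lung, nanozyme replicate 2 lay within the model range, and nanozyme replicates 1 and 3 lay between the model and normal lungs. Cxcl10 was measured at 11.7, 467 and 35.8 FPKM in nanozyme lungs, at 381, 572 and 650.4 FPKM in model lungs and at 2.70, 2.43 and 2.06 FPKM in normal lungs. The libraries fell in the same arrangement as for Cxcl9. Cxcr3 was measured at 2.82, 2.45 and 4.25 FPKM in nanozyme lungs, at 2.98, 2.76 and 3.79 FPKM in model lungs and at 0.521, 1.02 and 0.981 FPKM in normal lungs. The nanozyme and model lungs overlapped for the receptor, and both groups stood above all normal lungs. These are whole-lung values, so more cells of a type and more RNA per cell cannot be told apart.

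**Figure D1:**
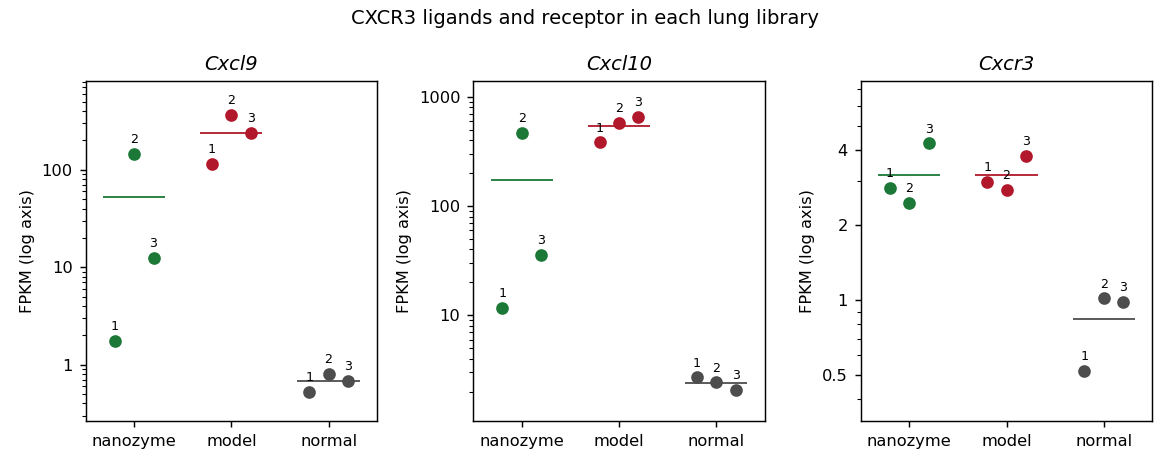
FPKM of Cxcl9, Cxcl10 and Cxcr3 in each of the 9 lungs on a log axis, with nanozyme lungs left, model lungs in the middle and normal lungs right; points are single mice, numbered by replicate, and bars are arithmetic group means. Nanozyme replicate 2 lies among the model lungs for both ligands, at 145 FPKM of Cxcl9 and 467 FPKM of Cxcl10, while the nanozyme and model lungs overlap for Cxcr3, from 2.45 to 4.25 FPKM.

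The lungs of the fibrosis model, set against normal lungs, address which genes change with the disease. Both ligands rose by more than 100-fold on the FPKM scale, and the receptor rose less. Cxcl9 averaged 241 ± 126 FPKM in model lungs and 0.673 ± 0.141 FPKM in normal lungs (SD, n = 3 each), a ratio of 358. Its log2(FPKM + 1) was higher by 7.03 ± 1.20 (SE; limma adjusted p = 0.00325). Each SE pools the spread of all 3 groups. Fitted with only model and normal lungs, it was 0.39 for Cxcl9 and 0.21 for Cxcl10. Cxcl10 averaged 535 ± 138 FPKM in model lungs and 2.40 ± 0.324 FPKM in normal lungs, a ratio of 223 and a log2 difference of 7.27 ± 1.08 (limma adjusted p = 0.00195). Cxcr3 averaged 3.18 ± 0.542 FPKM in model lungs and 0.839 ± 0.276 FPKM in normal lungs, a ratio of 3.79. Its log2 difference was 1.19 ± 0.20 (limma adjusted p = 0.00294), and with a pseudocount of 0.1 in place of 1 it was 1.84, since adding 1 understates changes of low values. Among all tested genes 17.4% were called higher in model lungs, and all 3 members were. In 23.5% of tested genes all model lungs lay above all normal lungs, which held for all 3 members. A larger log2 rise than that of Cxcl10 was found in 3 of the 14540 genes, a larger one than that of Cxcl9 in 4, and a larger one than that of Cxcr3 in 1148. The median log2 difference over all tested genes was -0.12, and 0.00 with median-of-ratios scaling.

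In nanozyme lungs set against model lungs, the comparison that addresses the treatment, neither ligand nor the receptor passed the test. Cxcl9 averaged 53.1 ± 79.9 FPKM in nanozyme lungs and 241 ± 126 FPKM in model lungs (SD, n = 3 each), a ratio of 0.22. Its log2 difference was -3.64 ± 1.20 (95% interval -6.38 to -0.90; limma adjusted p = 0.182). Cxcl10 averaged 172 ± 256 FPKM in nanozyme lungs and 535 ± 138 FPKM in model lungs, a ratio of 0.321 and a log2 difference of -3.12 ± 1.08 (95% interval -5.59 to -0.65; limma adjusted p = 0.182). Fitted with only nanozyme and model lungs, the SE was larger, at 1.36 for Cxcl9 and 1.23 for Cxcl10 (limma adjusted p = 0.36 for both). The call rate in this comparison was 0 of 14540 genes, or 0%, by limma with adjustment, while 22.1% had an unadjusted p under 0.05. Cxcl9 had the second most negative log2 difference of all tested genes, and 13 genes had a more negative one than Cxcl10. The groups overlapped for both ligands through nanozyme replicate 2, whose 145 FPKM of Cxcl9 and 467 FPKM of Cxcl10 exceeded the lowest model lung. Cxcr3 averaged 3.17 ± 0.951 FPKM in nanozyme lungs and 3.18 ± 0.542 FPKM in model lungs, a ratio of 0.998. Its log2 difference was -0.02 ± 0.20 (limma adjusted p = 0.963), with a 95% interval of -0.47 to 0.43.

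The 2 ligands varied among the nanozyme mice far more than most genes. The highest nanozyme lung exceeded the lowest by 83.0-fold for Cxcl9 and by 40.1-fold for Cxcl10, against 3.19-fold and 1.71-fold among model lungs. The SD of log2(FPKM + 1) among nanozyme lungs was 2.89 for Cxcl9 and 2.68 for Cxcl10, where the median of all tested genes was 0.201, and 23 and 31 genes had a larger one. For Cxcr3 it was 0.32, and the highest nanozyme lung exceeded the lowest by 1.74-fold.

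Without nanozyme replicate 2, both ligands were lower in nanozyme than in model lungs. The log2 difference of Cxcl9 was then -5.17 ± 0.67 (limma adjusted p = 0.00208) and that of Cxcl10 was -4.60 ± 0.42 (limma adjusted p = 0.000527). In that fit 9.64% of all tested genes were called lower and 12.5% higher, so calls were common among all genes. Cxcr3 differed by 0.11 ± 0.20 (limma adjusted p = 0.744). The library was left out because it resembles the model lungs, so these values are a description and not independent evidence of a decrease. Nothing in the labels sets that mouse apart from the other nanozyme mice. Without nanozyme replicate 1 or 3, neither ligand passed.

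In nanozyme lungs set against normal lungs, the levels that remained above normal are compared. Cxcl10 rose, with 172 ± 256 FPKM in nanozyme lungs and 2.40 ± 0.324 FPKM in normal lungs (SD, n = 3 each), a log2 difference of 4.15 ± 1.08 (limma adjusted p = 0.0378). That call was lost in 9 of 18 alternatives, where the adjusted p was 0.0538 to 0.116. Cxcr3 rose, with 3.17 ± 0.951 FPKM in nanozyme lungs and 0.839 ± 0.276 FPKM in normal lungs, a log2 difference of 1.17 ± 0.20 (limma adjusted p = 0.00742), which was 1.81 with a pseudocount of 0.1. Cxcl9 differed by 3.39 ± 1.20 and did not pass (95% interval 0.65 to 6.13; limma adjusted p = 0.0951), with means of 53.1 FPKM in nanozyme lungs and 0.673 FPKM in normal lungs. Of all tested genes 8.39% were called higher in nanozyme lungs. The nanozyme lungs lay above all normal lungs for all 3 members, as they did for 22.1% of tested genes. The lowest nanozyme lung held 1.75 FPKM of Cxcl9, against 0.807 FPKM in the highest normal lung, and 11.7 FPKM of Cxcl10, against 2.70 FPKM. Without nanozyme replicate 2, Cxcl10 was higher by 2.67 ± 0.42 (limma adjusted p = 0.00644) and Cxcr3 by 1.30 ± 0.20 (limma adjusted p = 0.00659), while Cxcl9 differed by 1.86 ± 0.67 (limma adjusted p = 0.114). In that fit 9.31% of all genes were called higher. Without nanozyme replicate 1, Cxcl9 passed at 4.73 ± 0.91 (limma adjusted p = 0.0218), in a fit that called 7.07% of all genes higher.

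**Figure D2:**
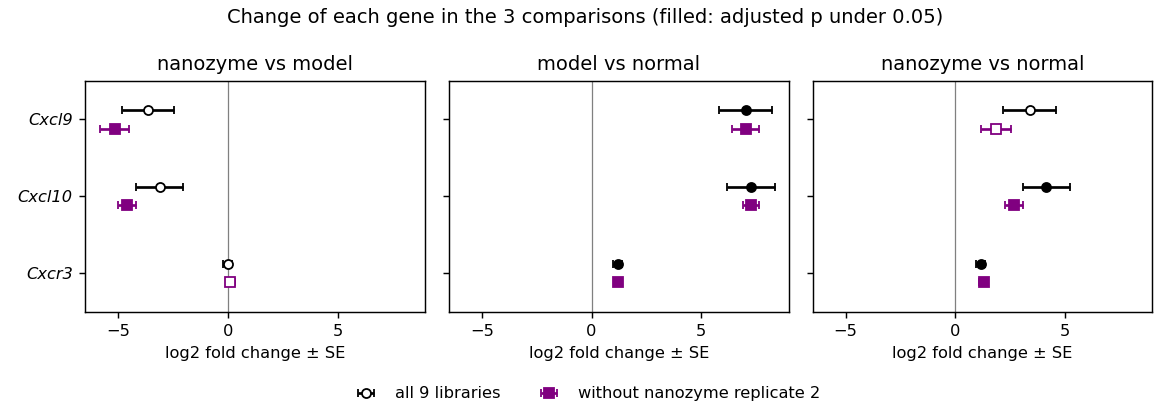
Differences in log2(FPKM + 1) with standard errors for Cxcl9, Cxcl10 and Cxcr3 in each comparison, from all 9 lungs and without nanozyme replicate 2. In nanozyme against model lungs the differences of Cxcl9 and Cxcl10 are -3.64 and -3.12 with all lungs and -5.17 and -4.60 without that library, while Cxcr3 stays near 0.

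The balance of the members differed between lungs. The summed level of Cxcl9 and Cxcl10 was 13.4, 613 and 48.2 FPKM in nanozyme lungs, 496, 939 and 891 FPKM in model lungs and 3.23, 3.23 and 2.74 FPKM in normal lungs. Cxcl10 was the more abundant ligand in all 9 lungs. Cxcl9 made up 13%, 23.7% and 25.6% of the sum in nanozyme lungs, 23.2%, 39.1% and 27.0% in model lungs and 16.3%, 24.9% and 25.0% in normal lungs, so these shares overlapped between all groups. Per FPKM of Cxcr3, the ligand sum was 4.75, 250.4 and 11.3 FPKM in nanozyme lungs, 167, 339.8 and 235 FPKM in model lungs and 6.20, 3.19 and 2.80 FPKM in normal lungs. By this ratio nanozyme replicate 2 lay among the model lungs and nanozyme replicate 1 among the normal lungs.

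The interferon-gamma pathway, which induces both ligands, rose in model lungs. Of its 11 listed genes 10 were called higher than in normal lungs and 0 lower, with a median log2 difference of 2.25 beside -0.12 for all tested genes. Over all tested genes, 17.4% were called higher and 22.7% lower in model lungs, the shares to set beside this and later lists. In nanozyme against normal lungs the share called higher was 8.39%. Ifng, the gene of the cytokine itself, was measured at 1.33, 6.18 and 1.43 FPKM in nanozyme lungs, at 8.67, 14.8 and 11.8 FPKM in model lungs and at 0.24, 0.20 and 0.27 FPKM in normal lungs. It was higher in model than in normal lungs by 3.34 ± 0.40 (limma adjusted p = 0.000881). Its 3 groups did not overlap, and nanozyme replicate 2 was the highest nanozyme lung, as in 78.0% of genes higher in model lungs. Over all tested genes, all model lungs lay above all normal lungs in 23.5%, and all nanozyme lungs did so in 22.1%. All nanozyme lungs lay below all model lungs in 5.83%. No gene of any list passed in nanozyme against model lungs with all 9 lungs. Ifng differed by -1.86 ± 0.40 (limma adjusted p = 0.181). Without nanozyme replicate 2, 8 of the 11 pathway genes were lower in nanozyme than in model lungs, beside 9.64% of all tested genes. Irf1, a transcription factor gene induced by interferon-gamma, was measured at 50.2, 275 and 71.5 FPKM in nanozyme lungs, at 212, 297 and 282 FPKM in model lungs and at 41.8, 43.5 and 44.8 FPKM in normal lungs. As for the ligands, nanozyme replicate 2 lay within the model range and the other nanozyme lungs below it. Irf1 rose in model against normal lungs by 2.56 ± 0.53 (limma adjusted p = 0.00663). The receptor subunit Ifngr2 rose by 1.12 ± 0.17 (limma adjusted p = 0.00212), whereas its partner Ifngr1, at 86.7, 75.2 and 80.3 FPKM in model lungs and 79.1, 88.5 and 81.3 FPKM in normal lungs, did not pass. In nanozyme against normal lungs 2 of the 11 genes passed, Ifng at 1.48 ± 0.40 (limma adjusted p = 0.0452) and the kinase Jak1 at 0.40 ± 0.11 (limma adjusted p = 0.0469). Without 1 library in turn that count ran from 0 to 3, being 1 without model replicate 1 or 3 and 0 without model replicate 2 or any 1 normal lung.

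Other genes known to be induced by interferon-gamma moved with the ligands. All 12 on the list were called higher in model than in normal lungs, with a median log2 difference of 4.40. Gbp2, a guanylate-binding protein gene of cell defence, was measured at 39.1, 598 and 76.5 FPKM in nanozyme lungs, at 430.2, 862 and 797 FPKM in model lungs and at 21.2, 21.4 and 19.4 FPKM in normal lungs, a log2 difference of 4.94 ± 0.84 between model and normal lungs (limma adjusted p = 0.00322). Iigp1, an immunity-related GTPase gene, rose by 4.78 ± 0.79 (limma adjusted p = 0.0029), and Psmb8, an immunoproteasome subunit gene, by 2.78 ± 0.44 (limma adjusted p = 0.00249). Both GTPase families hold near-identical copies, so values of single members are uncertain. In 11 of these 12 genes nanozyme replicate 2 reached at least the lowest model lung while replicates 1 and 3 lay below it, a pattern found in 12.7% of all tested genes and in 46.3% of the 2525 genes higher in model lungs. In nanozyme against model lungs 0 of the 12 passed with all lungs, and 12 were lower without nanozyme replicate 2 (median log2 difference -3.24). That fit called 9.64% of all tested genes lower. In nanozyme against normal lungs 3 passed, Psmb8, Psmb9 and Serpina3g, and the count was 0 without any 1 normal lung, 1 without nanozyme replicate 3 or any 1 model lung, 9 without nanozyme replicate 2 and 10 without nanozyme replicate 1. Over all tested genes 8.39% were called higher with all lungs, 9.31% without nanozyme replicate 2 and 7.07% without nanozyme replicate 1.

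The type I interferon pathway is another known input to Cxcl10, while the cytokine list mixes genes that drive CXCR3 responses with genes that accompany them. Of 7 tested type I interferon genes 5 were higher in model than in normal lungs, namely Ifnar2, Tyk2, Stat2, Irf7 and Irf9. Irf7, the transcription factor that amplifies the response, rose by 3.52 ± 0.52 (limma adjusted p = 0.00195). The interferon genes Ifna2 and Ifna4 were listed at 0 in all 9 lungs. Ifnb1, too low to be tested, stood at 0.115 FPKM in nanozyme replicate 2. It stood at 0.105 and 0.059 FPKM in model replicates 1 and 3, and at 0 in the other lungs. Of 8 tested cytokines that drive or accompany CXCR3 responses 5 were higher in model lungs, namely Il12a, Il27, Tnf, Il1b and Il10. Tnf, an activator of NF-kB, was measured at 1.32, 51.1 and 3.99 FPKM in nanozyme lungs, at 39.5, 76.0 and 62.1 FPKM in model lungs and at 1.20, 1.31 and 0.99 FPKM in normal lungs. It rose by 4.75 ± 0.95 in model against normal lungs (limma adjusted p = 0.00602), and its nanozyme lungs fell in the arrangement of the ligands. Il12a, a subunit of the cytokine that drives type 1 T cells, rose by 2.16 ± 0.43 (limma adjusted p = 0.00607), whereas Il18 differed by 0.17 and did not pass (limma adjusted p = 0.559).

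Genes that shape the ligands after their release changed in both directions. Dpp4, the membrane peptidase that trims CXCR3 ligands, was measured at 23.7, 12.3 and 20.8 FPKM in nanozyme lungs, at 10.6, 7.28 and 11.1 FPKM in model lungs and at 18.3, 21.9 and 20.6 FPKM in normal lungs. It fell in model against normal lungs, with a log2 difference of -1.01 ± 0.24 (limma adjusted p = 0.0119), among 22.7% of all tested genes called lower. In nanozyme lungs it differed from model lungs by 0.87 ± 0.24 and did not pass (limma adjusted p = 0.181), with nanozyme replicate 2 the lowest nanozyme lung. Ackr3, an atypical receptor that scavenges CXCL11 and CXCL12, differed by 0.20 ± 0.26 in model against normal lungs (limma adjusted p = 0.569). Of the 10 genes on this list 4 were higher (Mmp8, Mmp9, Mmp12 and Ackr1) and 1, Dpp4, was lower in model lungs, with a median log2 difference of 0.43. Mmp8, a neutrophil collagenase that can cleave chemokines, rose by 5.58 ± 0.37 (limma adjusted p = 0.0001).

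Genes through which chemokine receptors signal rose in both groups set against normal lungs. Of 10 listed genes 7 were higher in model than in normal lungs (median 0.80) and 6 in nanozyme than in normal lungs (median 0.67). Rac2, a GTPase of leukocyte movement, rose by 2.62 ± 0.18 in model lungs (limma adjusted p = 0.00011) and by 2.16 ± 0.18 in nanozyme lungs (limma adjusted p = 0.000428) against normal lungs. Gnai2, the G protein subunit coupled to such receptors, rose by 0.74 ± 0.10 in model against normal lungs (limma adjusted p = 0.00123), while Gnb1 differed by -0.03 and did not pass. These genes are expressed by many leukocytes besides CXCR3 bearers.

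**Figure D3:**
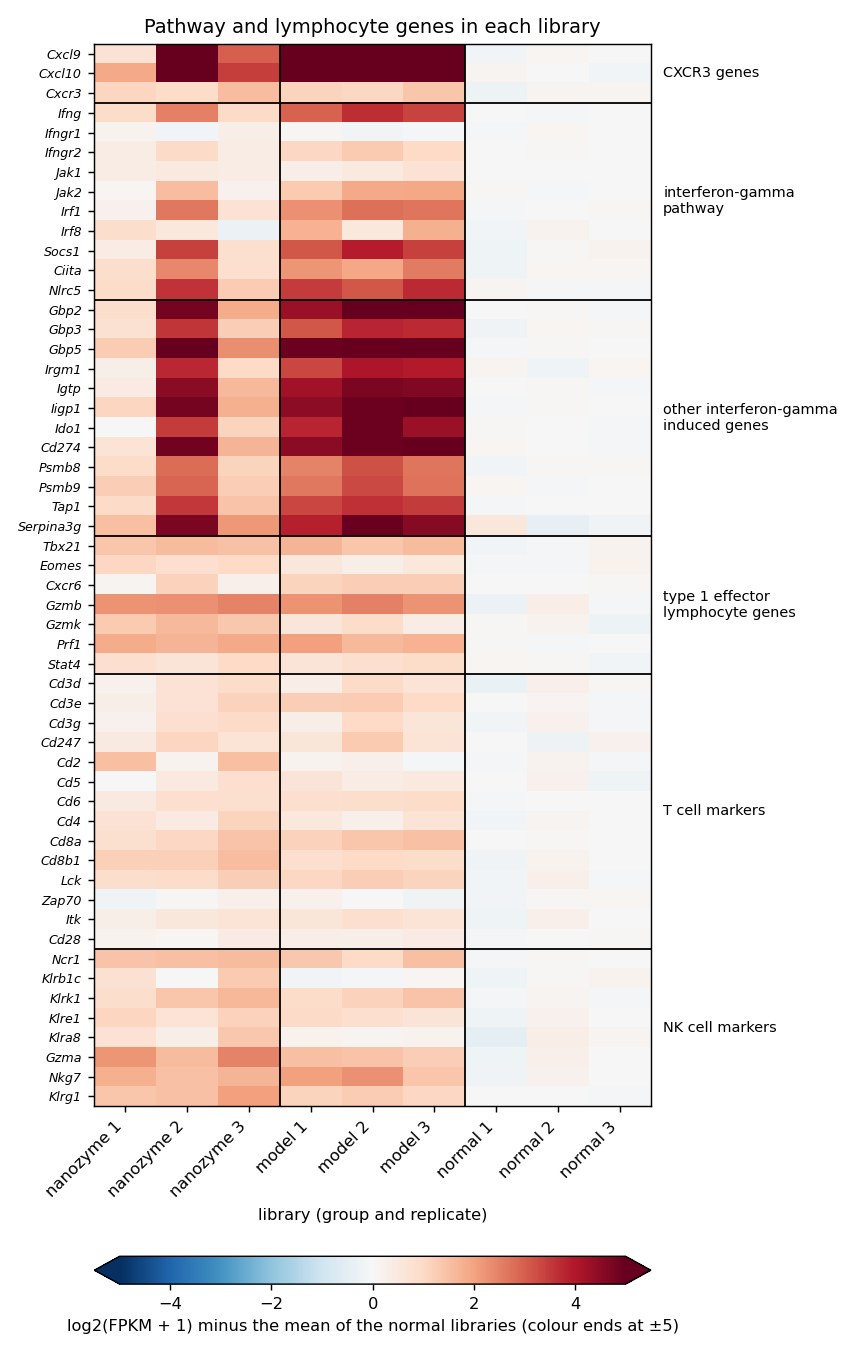
Levels of Cxcl9, Cxcl10, Cxcr3 and listed pathway and lymphocyte genes in each lung, as log2(FPKM + 1) minus the mean of the 3 normal lungs (colour ends at ±5), with nanozyme lungs left, model lungs in the middle and normal lungs right. Nanozyme replicate 2 resembles the model lungs for the ligands, Irf1 and Gbp2, whereas Cxcr3, Tbx21 and Gzmb are high in all nanozyme and model lungs.

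Cxcr3 rose together with genes of the lymphocytes that carry it. Of 14 T cell markers 7 were higher in model than in normal lungs and 6 in nanozyme than in normal lungs, with median log2 differences of 0.68 and 0.71. The shares over all tested genes were 17.4% and 8.39%. The summed level of the T cell markers was 80.7 to 111 FPKM in nanozyme lungs, 75.2 to 91.6 FPKM in model lungs and 40.9 to 51.5 FPKM in normal lungs, and no marker was at 0 throughout. Cd3e, a chain of the T cell receptor complex, was measured at 1.93, 2.94 and 4.25 FPKM in nanozyme lungs, at 4.55, 4.69 and 3.68 FPKM in model lungs and at 1.32, 1.57 and 1.21 FPKM in normal lungs. It rose in model against normal lungs by 1.16 ± 0.21 (limma adjusted p = 0.00375) and in nanozyme against normal lungs by 0.73 ± 0.21 (limma adjusted p = 0.0491). The count of T cell markers higher in nanozyme than in normal lungs was 3 without normal replicate 1 and 3 without normal replicate 3. Of 10 NK cell markers 8 were higher in each of these comparisons, with medians of 1.15 in model and 1.40 in nanozyme lungs against normal lungs. Their summed level was 158 to 260.3 FPKM in nanozyme lungs, 134 to 164 FPKM in model lungs and 46.9 to 63.2 FPKM in normal lungs, and no marker was at 0 throughout. Ncr1, an NK cell receptor gene, rose by 1.28 ± 0.14 in model lungs (limma adjusted p = 0.000583) and by 1.50 ± 0.14 in nanozyme lungs (limma adjusted p = 0.000737) against normal lungs.

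All 9 tested type 1 effector genes were higher in model than in normal lungs, and 8 were higher in nanozyme than in normal lungs. Tbx21, the transcription factor of type 1 lymphocytes and a known inducer of CXCR3, was measured at 3.46, 4.11 and 3.64 FPKM in nanozyme lungs, at 4.44, 3.42 and 4.12 FPKM in model lungs and at 0.54, 0.64 and 0.94 FPKM in normal lungs. It differed by -0.07 between nanozyme and model lungs (95% interval -0.39 to 0.24; limma adjusted p = 0.771) and was higher by 1.55 ± 0.14 in model than in normal lungs (limma adjusted p = 0.000273). Gzmb, the gene of the killer protease granzyme B, was measured at 14.8, 15.1 and 17.6 FPKM in nanozyme lungs, at 14.96, 17.8 and 14.95 FPKM in model lungs and at 1.72, 3.19 and 2.21 FPKM in normal lungs, where the nanozyme and model lungs again overlapped. It was higher by 2.34 ± 0.17 in nanozyme than in normal lungs (limma adjusted p = 0.000273). Without nanozyme replicate 2, 1 of 14 T cell markers and 3 of 10 NK cell markers were higher and 0 of either list were lower in nanozyme than in model lungs, whereas of the 9 type 1 effector genes 2 were higher and 3 lower. That fit called 12.5% of all tested genes higher and 9.64% lower. Unlike Tbx21 and Gzmb, Ifng had its lowest model lung above every nanozyme lung, although it belongs to the same list. All nanozyme lungs lay below all model lungs in 5.83% of tested genes.

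Set against lymphocyte markers, Cxcr3 gave a different order of the groups for T cell and for NK cell markers. Per 100 FPKM of summed T cell markers it stood at 3.37, 3.03 and 3.82 FPKM in nanozyme lungs, 3.96, 3.01 and 4.85 FPKM in model lungs and 1.27, 1.97 and 2.18 FPKM in normal lungs. By this ratio the nanozyme and model lungs overlapped, and the normal lungs lay below all others. Per 100 FPKM of summed NK cell markers it stood at 1.29, 1.55 and 1.63 FPKM in nanozyme lungs, 1.82, 1.73 and 2.83 FPKM in model lungs and 1.11, 1.61 and 1.78 FPKM in normal lungs. By that ratio every nanozyme lung lay below every model lung, while the normal lungs overlapped both groups. Gzma alone was the largest part of the NK cell sum, so this order depends on that gene. It was measured at 139, 90.0 and 168 FPKM in nanozyme lungs and at 86.2, 81.3 and 69.3 FPKM in model lungs. These ratios were not tested.

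Myeloid markers were higher in model than in normal lungs. The 10 neutrophil markers summed to 1127 to 3348 FPKM in nanozyme lungs, 2516 to 3287 FPKM in model lungs and 39.3 to 48.1 FPKM in normal lungs, and 10 of 10 were higher in model than in normal lungs. Ly6g, their defining surface marker, was listed at 0 in all 3 normal lungs. The 10 monocyte and macrophage markers summed to 590.0 to 1198 FPKM in nanozyme lungs, 1256 to 1778 FPKM in model lungs and 172 to 179 FPKM in normal lungs, and 10 of 10 were likewise higher. Without nanozyme replicate 2, 9 of 10 neutrophil and 7 of 10 monocyte and macrophage markers were lower in nanozyme than in model lungs. That fit called 9.64% of all tested genes lower. In both lists nanozyme replicate 2 was the highest nanozyme lung for 9 of 10 genes, as it was for 78.0% of the 2525 genes higher in model than in normal lungs and for 33.5% of all tested genes. Endothelial markers, of another cell type able to make the ligands, summed to 741 to 1175 FPKM in nanozyme lungs, 393 to 832 FPKM in model lungs and 958 to 1130 FPKM in normal lungs, with 0 of 10 higher and 2, Emcn and Egfl7, lower in model than in normal lungs. Among all tested genes 22.7% were called lower, near the share of these markers. The count of lower endothelial markers was 6 without nanozyme replicate 2, 4 without model replicate 1 and 1 without model replicate 2 or any 1 normal lung. Fibroblast markers summed to 899 to 2517 FPKM in nanozyme lungs, 638 to 1171 FPKM in model lungs and 1862 to 2358 FPKM in normal lungs, with the collagen genes Col1a1, Col1a2 and Col3a1 (3 of 10) higher and Tcf21 and Inmt (2 of 10) lower in model than in normal lungs. For the fibroblast calls the shares over all tested genes were 17.4% higher and 22.7% lower. The part of the myeloid, endothelial and fibroblast cell types in the levels of Cxcl9 and Cxcl10 was not tested.

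The genes closest in profile to the members over the 9 lungs differed between ligands and receptor. Likeness was the root mean square difference of log2(FPKM + 1) after centring each gene on its mean, over 13112 named genes, and all profiles share the same libraries. Cxcl9 and Cxcl10 differed from each other by 0.462, and from Cxcr3 by 2.82 and 2.83. The 5 nearest genes to Cxcl9 were Ccl3, a chemokine gene (0.315), Ly6i (0.408), Il1rn, the interleukin-1 receptor antagonist gene (0.438), Clec4e, a myeloid lectin receptor gene (0.523), and Cxcl3, a neutrophil chemokine gene (0.524). Ly6i has close paralogs, so its level is uncertain. The nearest to Cxcl10 were Clec4e (0.336), Ccl3 (0.363), Cxcl3 (0.451), Slfn4 (0.468) and Il1rn (0.542), so 4 of 5 are shared between the ligands. The nearest to Cxcr3 were Ms4a4b, a membrane protein gene of T and NK cells (0.111), Traf3ip3 (0.128), Tspan4 (0.137), Lig1, a DNA ligase gene (0.144), and Gpsm3, a modulator of G protein signalling (0.147), none of them near a ligand. Ccl3 was measured at 3.56, 248 and 18.8 FPKM in nanozyme lungs, 216, 376 and 227 FPKM in model lungs and 0.830, 1.54 and 1.16 FPKM in normal lungs. Ms4a4b was measured at 7.70, 6.35 and 9.32 FPKM in nanozyme lungs, 6.57, 7.29 and 7.87 FPKM in model lungs and 2.14, 2.90 and 2.55 FPKM in normal lungs.

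**Figure D4:**
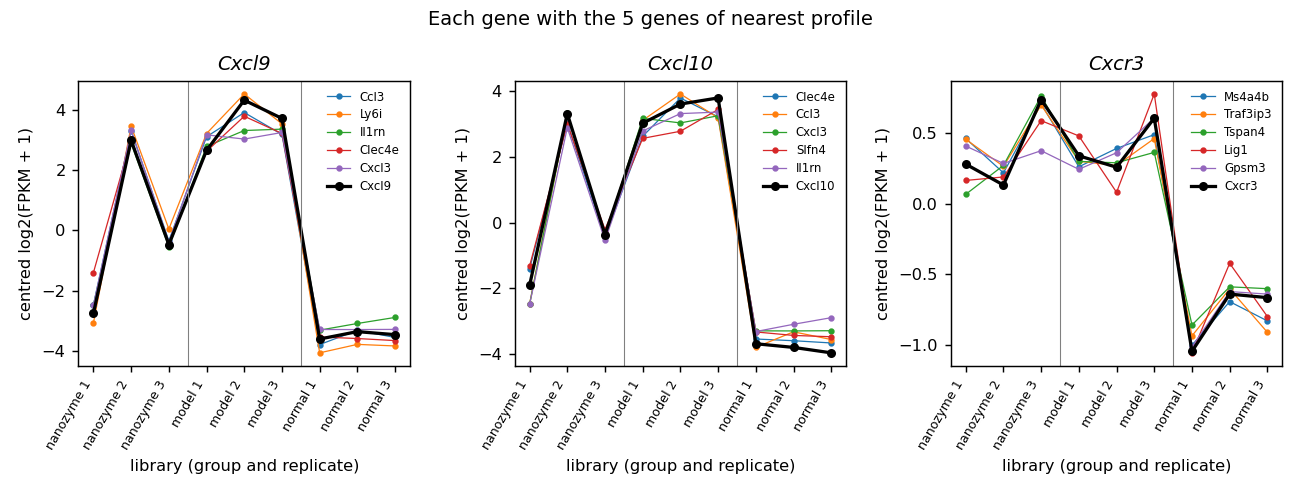
Profiles over the 9 lungs, as log2(FPKM + 1) centred on the mean of each gene, of Cxcl9, Cxcl10 and Cxcr3 with the 5 genes nearest to each, nanozyme lungs left, model lungs in the middle and normal lungs right. The ligands and their nearest genes swing widely among the nanozyme lungs, while Cxcr3 and its nearest genes overlap between nanozyme and model lungs and are lowest in normal lungs.

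Genes next to the ligands on chromosome 5 did not share their size of change. Art3, which spans Cxcl10 on the other strand, averaged 16.4 ± 3.21 FPKM in nanozyme lungs, 11.5 ± 3.33 FPKM in model lungs and 18.2 ± 2.27 FPKM in normal lungs (SD, n = 3 each). It fell in model against normal lungs, with a log2 difference of -0.65 ± 0.22 (limma adjusted p = 0.0422), while Cxcl10 rose. Of the flanking genes, Nup54 rose by 0.48 ± 0.12 (limma adjusted p = 0.0137) and Fam47e fell, with a log2 difference of -1.46 ± 0.30 (limma adjusted p = 0.007). Sdad1, Naaa and Scarb2 differed by 0.35, 0.30 and 0.31 and did not pass.

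Of 12 other CXC chemokine genes 7 were higher in model than in normal lungs (median log2 difference 1.92). Cxcl12, the ligand of Cxcr4, rose by 1.94 ± 0.29 in model against normal lungs (limma adjusted p = 0.00195), and Cxcl15, an abundant lung chemokine, differed by -0.12 (limma adjusted p = 0.586). Of 9 other genes for receptors that guide T and NK cells, 4 were higher in model than in normal lungs, Cxcr4 among them, with a median log2 difference of 0.66. These 9 include S1pr1 and S1pr5, which are lipid receptor genes and not chemokine receptor genes. Cxcr4 rose by 0.70 ± 0.11 in model against normal lungs (limma adjusted p = 0.00262).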

How the data were processed

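RNA-seq of 9 mouse lungs, 3 mice per group, was analysed from 1 table of FPKM values that the authors deposited, with 1 column per library and 0 columns unused. The submitters' processing notes name HISAT2 as a tool and GRCm38 as the build. Per the labels' protocols, poly(A) RNA was selected and the second strand marked. The counting tool, annotation, strand setting, versions and depth are not given in the sources used here, and intervals cover the spread between mice. Genes with FPKM of at least 1 in at least 3 libraries were tested on log2(FPKM + 1) with limma 3.58.1 (R 4.3.3), all 9 libraries in 1 fit with 1 coefficient per group and an intensity trend. Tests were two-sided with Benjamini-Hochberg adjustment over 14540 genes at 0.05, tested on simulated data, and changes are on the log2(FPKM + 1) scale. An exact permutation test of 3 against 3 mice cannot give a p below 0.10, so none was run. Beside the members, genes were named as the 4 most abundant per list, plus Ifng, Irf1, Ifngr1, Ifngr2, Dpp4, Ackr3, Cd3e, Tbx21, Gzmb and Ncr1, and as the 5 nearest profiles and the chromosomal neighbours. Other names complete short counts, show the make-up of a list or, as Ly6g, Ifna2, Ifna4, Ifnb1, Klrb1c and Klra8, were chosen after their values were seen. Not every gene named by these rules is reported here. The members and lists were chosen with earlier results of these data known. Promoter sequences are from RefSeq (GRCm38.p6). The 18 alternatives per result included other filters, scalings, a replicate block and leaving out each library. Figures used matplotlib 3.10.9 and Python 3.11.15.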

Additional observations from a re-analysis of the deposited data

How the results depend on the processing

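The 3 members in 3 comparisons gave 159 results under alternatives, of which 144 kept their direction and their side of the threshold. All calls in model against normal lungs held. Cxcl10 in nanozyme against normal lungs no longer passed without the filter (4.15, adjusted p = 0.0604), in a fit of only these groups (4.15, adjusted p = 0.0809), and without nanozyme replicate 3 or any 1 model or normal lung; over left-out libraries it ran from 2.67 to 5.28. Over left-out libraries Cxcl9 ran from 1.86 to 4.73 in that comparison. In nanozyme against model lungs Cxcl9 ran from -5.17 to -2.30 and Cxcl10 from -4.60 to -1.99, both past the threshold without nanozyme replicate 2 only. Cxcr3 ran from -0.20 to 0.11 and changed sign to 0.03 without nanozyme replicate 1, 0.11 without nanozyme replicate 2 and 0.08 without model replicate 3. The cause was not tested. Cxcr3 was not in the fit with a mean FPKM of at least 5.

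Counts of genes called were 0 to 3216 in nanozyme against model lungs over left-out libraries and 4 with no filter, 3836 to 6590 in model against normal lungs, and 748 to 2258 in nanozyme against normal lungs, where the filter at a mean of 5 gave 1285. Of called genes in model against normal lungs 43.4% were higher, 54.5% with equal column sums and 55.3% with median-of-ratios scaling. In nanozyme against normal lungs 60.4% were higher, 72.4% with equal column sums and 46.8% with quantile normalization. Same-numbered mice did not deviate together (r = -0.331 to 0.227), and mice of different numbers spanned a similar range (r = -0.358 to 0.385). The numbers thus gave no sign of a pairing, which groups of 3 mice cannot exclude. A replicate block called 0, 5628 and 1734 genes in nanozyme against model, model against normal and nanozyme against normal lungs, and changed no member call: Cxcl10 in nanozyme against normal lungs had an adjusted p of 0.0419. Without read counts, the counting error of low values such as those of Cxcr3 is unknown.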
